A study of Mus musculus with 8 samples.

Results

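Ribosome footprints and RNA-seq counts of 9 long noncoding RNAs were compared in mouse embryonic stem cells with and without METTL5. The members were taken by gene symbol from tables of 23845 genes. They are 7 host genes of small nucleolar RNAs (snoRNAs), Gas5, Snhg1, Snhg3, Snhg5, Snhg6, Snhg8 and Snhg12, and 2 nuclear RNAs, Malat1 and Neat1. Every group held embryonic stem cells (mESC) at passages 5 to 10, of wild-type (WT) or METTL5 KO genotype, with 2 RNA-seq and 2 Ribo-seq libraries per genotype. RNA-seq material was total RNA of cells at 80% confluence, and Ribo-seq material was RNA from the monosome fraction of a sucrose gradient. METTL5 is the enzyme that methylates an adenosine of 18S ribosomal RNA. The labels give no number of KO clones.

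SnoRNAs are short RNAs that guide chemical modification and processing of ribosomal RNA, and most mammalian ones are cut out of the introns of longer transcripts. The spliced exons of a noncoding host are exported, often hold only short reading frames, and in several hosts are known targets of nonsense-mediated decay, the pathway that degrades RNAs on which ribosomes stop early. Gas5 is the textbook case, and like ribosomal protein mRNAs it starts with a pyrimidine-rich stretch. Malat1 is an abundant, mostly unspliced RNA of nuclear speckles, and Neat1 is the scaffold of paraspeckles.

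The 5′ ends of the hosts are shown because a pyrimidine run there is the feature they are known to share with ribosomal protein genes. Each window holds the 10 bases before and the first 20 bases of the transcript, on the gene's strand, from RefSeq on GRCm38.p6, and capitals mark the longest run of at least 5 C or T.
Gas5 (chr1:161035156-161035185, plus strand): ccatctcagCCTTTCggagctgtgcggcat
Snhg1 (chr19:8723477-8723506, plus strand): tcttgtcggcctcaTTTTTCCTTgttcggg
Snhg3 (chr4:132353667-132353696, minus strand): gaccacgcctgaCTTCCgggcgttacttaa
Snhg5 (chr9:88522878-88522907, minus strand): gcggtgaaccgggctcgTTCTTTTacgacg
Snhg8 (chr3:123508317-123508346, minus strand): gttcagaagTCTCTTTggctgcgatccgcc
Snhg12 (chr4:132308668-132308697, plus strand): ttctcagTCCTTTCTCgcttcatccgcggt
Malat1 (chr19:5802653-5802682, minus strand): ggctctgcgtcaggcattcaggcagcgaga
Of the 7 members with an entry in the RefSeq table, 6 held such a run and Malat1 did not, and 46.4% of 32851 promoters held one in the same window. In Gas5, Snhg8 and Snhg12 the run spans the first base of the RefSeq transcript. In Snhg1, Snhg3 and Snhg5 it starts after the first 4, 2 and 7 bases of that transcript. The GENCODE models below start at other bases for Snhg1, Snhg5 and Snhg8. Against those models the Snhg8 run lies before the transcript and the Snhg5 run begins at the first base. The Snhg1 window lies wholly inside its first exon.

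The gene models decide which reads a host can receive. The counted Gas5 model is 2554 bases long and corresponds to a GENCODE transcript with a retained intron at chr1:161035166-161038539 on the plus strand. Its 4 exons contain 6 of the 9 snoRNAs of the gene, which make up 435 bases or 17% of the counted length. Snhg8 was likewise counted over 785 bases, linked to a single GENCODE exon of 776 bases (chr3:123507555-123508330, minus strand). That exon contains Snora24, 16.6% of the counted length. In the other 5 hosts every snoRNA lies in an intron, so that of 27 snoRNAs 7 are inside counted exons and 20 are not. Each table gives 1 count per gene, so counts from a snoRNA stretch of Gas5 or Snhg8 and counts from the rest of the transcript cannot be told apart.

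**Figure D1:**
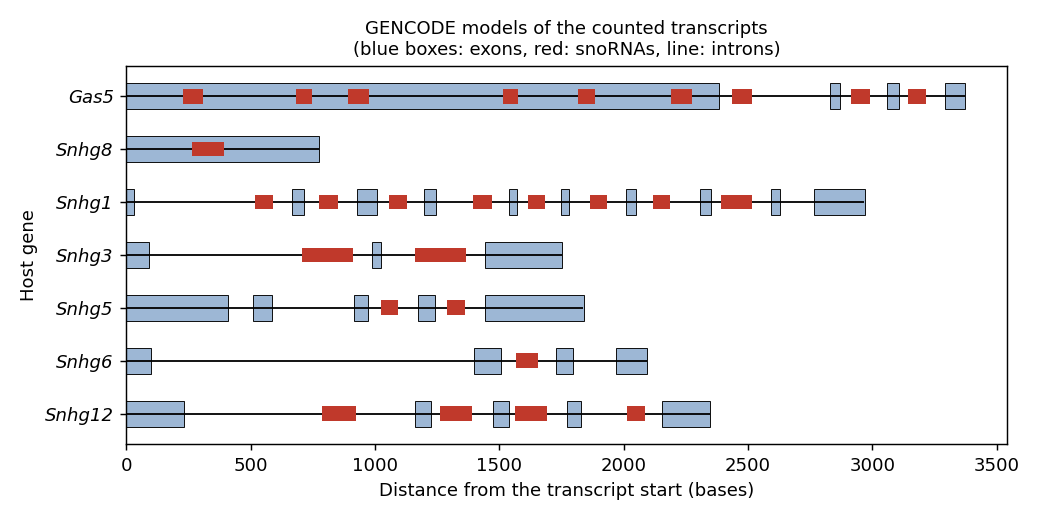
GENCODE models linked to the counted transcripts of the 7 host genes, drawn by distance from the transcript start in bases. Exons are in blue, snoRNAs in red and introns are lines. The Snhg1 model is 605 bases long, against 476 counted. The snoRNAs fall inside counted exons in Gas5 (6 of 9) and Snhg8 (1 of 1) and in introns in the other 5 hosts.

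Both snoRNA classes are present among those inside counted exons. Box C/D snoRNAs, which guide ribose methylation, carry the letters TGATG near the 5′ end and CTGA near the 3′ end, and box H/ACA snoRNAs, which guide pseudouridylation, carry ACA 3 bases before the 3′ end. The sequences are from GENCODE M21 on GRCm38, with those letters in capitals.
Gm26224, in Gas5 (chr1:161035394-161035473, plus strand): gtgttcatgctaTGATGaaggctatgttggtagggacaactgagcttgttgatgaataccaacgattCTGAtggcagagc
Snord78, in Gas5 (chr1:161036984-161037049, plus strand): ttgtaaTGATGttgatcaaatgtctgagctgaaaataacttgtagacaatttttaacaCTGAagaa
Snora24, in Snhg8 (chr3:123507937-123508066, minus strand): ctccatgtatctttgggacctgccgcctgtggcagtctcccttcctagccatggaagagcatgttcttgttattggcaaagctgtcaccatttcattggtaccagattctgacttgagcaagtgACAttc
Searched on the snoRNA strand, TGATG together with CTGA occurs in 33.0% of 1507 annotated mouse snoRNAs, and ACA at that place in 18.3%.

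The other hosts are compact spliced genes. Snhg1 spans chr19:8723475-8726443 (plus strand) with 10 exons, Snhg3 chr4:132351933-132353686 (minus) with 3, Snhg5 chr9:88521052-88522890 (minus) with 5, Snhg6 chr1:9942025-9944117 (minus) with 4, and Snhg12 chr4:132308678-132311024 (plus) with 5. Malat1 is a single exon at chr19:5795690-5802672 (minus), counted over 6982 bases. Neat1 was counted over 3177 bases as its short form, linked to a GENCODE model of 3004 bases at chr19:5842307-5845476 (minus). Snhg3 shares 347 exonic bases with Gm17300 on the opposite strand and 28 with Rcc1 on its own, Snhg6 shares 61 with Mcmdc2 on the opposite strand, and Malat1 shares 453 with Gm37376 on the opposite strand. No source names the strand setting of the counting, and reads in those stretches are uncertain.

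Reading frames from the first ATG were short in every member. They were read on the linked GENCODE models, which were 605 bases long in Snhg1 and 3004 in Neat1, against counted lengths of 476 and 3177. The first frame had 40 codons in Snhg1, 42 in Snhg3, 53 in Snhg6 and 54 in Snhg12, but 3 in Snhg5 and 1 in Snhg8. The nuclear RNAs lay on both sides of most hosts, with 23 codons in Malat1 and 79 in Neat1. In Gas5 the counted model starts with a frame of 14 codons, whereas its 5 spliced GENCODE forms, of 346 to 665 bases, share 1 first frame of 23 codons. That shared frame is shown with its start and stop codons in capitals.
Gas5 first frame: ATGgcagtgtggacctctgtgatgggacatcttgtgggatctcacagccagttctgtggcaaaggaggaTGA

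Ribo-seq libraries held 8401463 to 11487964 expected counts and RNA-seq libraries 152195 to 219567, so 3 counts were worth 0.261 to 0.357 CPM (counts scaled to the library total) in Ribo-seq and 13.7 to 19.7 CPM in RNA-seq (counting error only). Footprints on Mettl5, the targeted gene, were 41.2 and 45.9 CPM in WT and 4.08 and 4.79 CPM in KO, a log2 fold change of -3.27 (SE 0.22, edgeR adjusted p = 0.00131). Summed footprints of 9 stem cell markers lay at 5699 to 7416 CPM in all libraries, whereas their summed RNA-seq level was 634 and 659 CPM in WT and 250 and 275 CPM in KO. Summed footprints of markers of other lineages moved with genotype. Over 9 fibroblast markers they were 65 to 150 CPM in WT and 355 to 507 in KO, with Lum at 0 in all libraries. Over 6 trophoblast markers they were 106 to 116 against 303 to 329, and over 6 endoderm markers 108 to 166 against 30.8 to 33.7. Among those tested in footprints, 5 of 6 fibroblast, 3 of 4 trophoblast and 0 of 5 endoderm markers had a fold change above 0. Calls by edgeR were 1 fibroblast and 2 trophoblast markers higher and 2 endoderm markers lower, beside 1.83% and 0.617% of genes. In RNA-seq the trophoblast sums were also higher in KO (58.2 and 30.3 CPM in WT, 242 and 154 in KO). The fibroblast sums were 4.73 and 0 CPM in WT and 52.6 and 17.3 in KO. Only KO replicate 1 of these lay above the level of 3 counts. The endoderm sums overlapped (28.4 and 59.2 CPM in WT, 32.9 and 28.8 in KO). The part of these markers in the results that follow was not tested, and in these bulk libraries more cells of a type and more RNA per cell cannot be told apart.

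Gas5 was the host with the highest share of footprints and the least reproducible one. Its footprints were 83.2 and 211 CPM in the WT libraries and 111 and 323 CPM in the KO libraries. Replicate 2 exceeded replicate 1 by 2.53-fold in WT and 2.90-fold in KO, a larger gap than that between genotypes, and the groups overlapped. Within a replicate number, KO exceeded WT by 1.34-fold and 1.53-fold. The deposited Ribo-seq tables of one number carry a common tag in their names for WT and KO. The log2 fold change was 0.61 (SE 0.85, edgeR adjusted p = 0.777), and without KO replicate 2 it was -0.43.

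Snhg1, host of a series of box C/D snoRNAs, gave the closest replicates. Its footprints were 28.9 and 29.5 CPM in WT and 36.4 and 36.8 CPM in KO, so both KO libraries were above both WT libraries. The log2 fold change of 0.34 (SE 0.18) did not pass the test (edgeR adjusted p = 0.337). Snhg5, host of Snord50a and Snord50b, had 29.4 and 33.0 CPM in WT and 37.4 and 36.7 CPM in KO. These groups did not overlap either, with a log2 fold change of 0.26 (SE 0.18, edgeR adjusted p = 0.465).

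Snhg8 had the largest difference among the members. Its footprints were 4.11 and 6.43 CPM in WT and 8.80 and 13.0 CPM in KO, with no overlap, and the log2 fold change was 1.09 (SE 0.32). The unadjusted p was 0.00793 and the adjusted p 0.115 (edgeR). Without WT replicate 2 the difference was 1.42 with an adjusted p of 0.0275, and without KO replicate 2 it was 0.72 with an adjusted p of 0.444. Snhg6, host of Snord87, had 2.29 and 3.09 CPM in WT and 5.52 and 4.20 CPM in KO, again without overlap. Its log2 fold change was 0.85 (SE 0.32) with an unadjusted p of 0.027 and an adjusted p of 0.197 (edgeR).

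Snhg12 and Snhg3 varied more between replicates. Snhg12, which holds 3 H/ACA snoRNAs and Snord99, had 6.50 and 3.21 CPM in WT and 8.15 and 6.70 CPM in KO. The KO libraries were above the WT libraries by a narrow margin (log2 fold change 0.60, SE 0.34, edgeR adjusted p = 0.381), and without WT replicate 1 the difference was 1.22 with an adjusted p of 0.0463. Snhg3, host of Snora73a and Snora73b, had 18.0 and 44.2 CPM in WT and 27.1 and 38.3 CPM in KO. Its KO values lay inside the WT range (log2 fold change 0.11, SE 0.41, edgeR adjusted p = 0.921). The sign turned to -0.40 without WT replicate 1 and to -0.22 without KO replicate 2.

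The nuclear RNAs did not separate by genotype. Malat1 had 46.4 and 69.7 footprint CPM in WT and 46.3 and 61.5 in KO, a log2 fold change of -0.08 (SE 0.24, edgeR adjusted p = 0.893). Neat1 had 1.05 and 1.31 CPM in WT and 1.82 and 0.78 in KO, a log2 fold change of 0.13 (SE 0.53, edgeR adjusted p = 0.928). For both, the sign changed when single libraries were left out, to 0.23 for Malat1 without WT replicate 2 and 0.14 without KO replicate 1, and to -0.03 for Neat1 without WT replicate 1 and -0.52 without KO replicate 1.

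**Figure D2:**
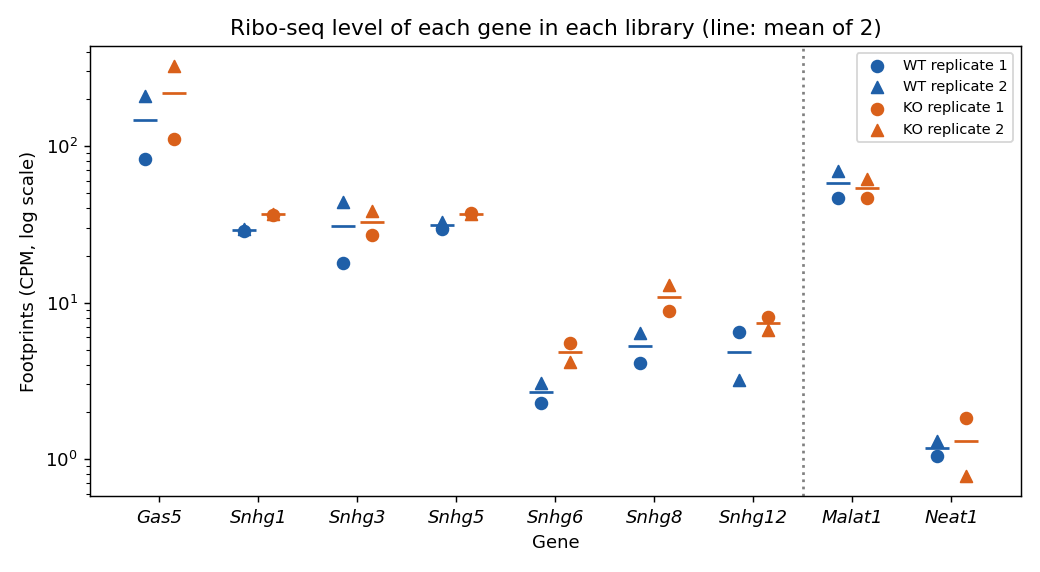
Footprints in CPM on a log scale for each of the 9 members, with circles for replicate 1, triangles for replicate 2, WT in blue, KO in orange and lines at the mean of 2 libraries. Both KO libraries lie above both WT libraries for Snhg1, Snhg5, Snhg6, Snhg8 and Snhg12, and Gas5 spreads from 83.2 to 323 CPM with its replicates further apart than its genotypes.

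All 9 members were tested in footprints and 0 were called at an adjusted p below 0.05, beside 2.44% of 12315 genes. An unadjusted edgeR p below 0.05 was reached by 2 of the 7 hosts, Snhg6 and Snhg8, and by 2387 of all genes tested. DESeq2 and limma on TPM called 0 of the 7 hosts. Without the filter edgeR called 2 (beside 6.41% of genes), and a fit with a replicate block called 3 (beside 24.0% of genes). The fold change was above 0 in 7 of 7 hosts, with a median of 0.60 on the log2 scale, beside 50.8% of all genes and a median of 0.01. The KO libraries were above the WT libraries without overlap in 5 of 7 hosts, beside 24.3% of genes, and KO was higher within both replicate numbers in 6 of 7, beside 34.7%. The count of hosts above 0 fell to 6 without WT replicate 1 (median 0.33) and to 5 without KO replicate 2 (median 0.29). The hosts' direction thus changed in part with single libraries left out. Such a fit also leaves 1 replicate number without its other genotype, and same-numbered Ribo-seq libraries deviated together (correlation 0.398). Dependence on 1 library and an uneven set of replicate numbers therefore cannot be told apart there.

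Compared per length, in the deposited TPM (length-corrected shares of a library), the hosts fell into a higher and a lower tier. TPM rests on the counted length, which was 2554 bases for Gas5 against 346 to 665 in its spliced forms. For Snhg1 it was 476 bases against 605 in the linked model. The places of these genes would differ with another length. In WT footprints Snhg3 had 67.7 and 170 TPM, Snhg1 99.4 and 104 and Gas5 51.2 and 133, and these ranges overlapped. Snhg5 followed with 46.5 and 53.3 TPM, which overlapped Gas5 only. Below a gap came Malat1 (10.4 and 16.0 TPM), Snhg12 (17.4 and 8.80), Snhg6 (9.31 and 12.8) and Snhg8 (8.41 and 13.5), whose ranges all overlapped. Neat1 was lowest at 0.52 and 0.66 TPM. In KO the same upper tier was present, with Gas5 at 67.8 and 203 TPM, Snhg1 at 124 and 130, Snhg3 at 101 and 148 and Snhg5 at 58.4 and 59.3. Malat1 at 10.2 and 14.1 TPM then lay below Snhg8 (17.8 and 27.1), Snhg12 (21.6 and 18.3) and Snhg6 (22.2 and 17.5) in both KO libraries.

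In the RNA-seq tables Malat1 was far above every host in counts and CPM, and less far per length. Malat1 had 163 and 284 counts in WT and 120 and 145 in KO, or 771, 1292, 786 and 837 CPM. Per length it had 274 and 469 TPM in WT and 287 and 328 in KO. The highest host value was 107 TPM, for Snhg1 in WT replicate 2, and it rests on 4 counts. Gas5 had 4 and 2 counts in WT and 2 and 1 in KO. The counts of Snhg1 were 2, 4, 0 and 1, those of Snhg5 2, 2, 1 and 2, those of Snhg12 1, 1, 2 and 1, and those of Neat1 1, 4, 0 and 1, each in the order WT 1, WT 2, KO 1 and KO 2. Snhg6 had 2 counts in WT replicate 1 and 0 in the other libraries. Snhg3 and Snhg8 had 0 counts in all 4, which allows up to 13.7 to 19.7 CPM per library. None of the 7 hosts passed the filter on low counts in RNA-seq, so neither their RNA level nor their translational efficiency could be tested, and a footprint difference cannot be set against an RNA difference for any of them.

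Malat1 was the only member tested in RNA-seq. Its log2 fold change was -0.43 (SE 0.26, edgeR adjusted p = 0.368), beside 6.37% of 2087 genes called, and WT replicate 2 stood above the other 3 libraries. Without WT replicate 1 the difference was -0.75 with an adjusted p of 0.0263. Its translational efficiency, the footprint change relative to the RNA change in 1 model, differed by 0.38 (SE 0.41, edgeR adjusted p = 0.608), beside 9.26% of 1458 genes called.

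**Figure D3:**
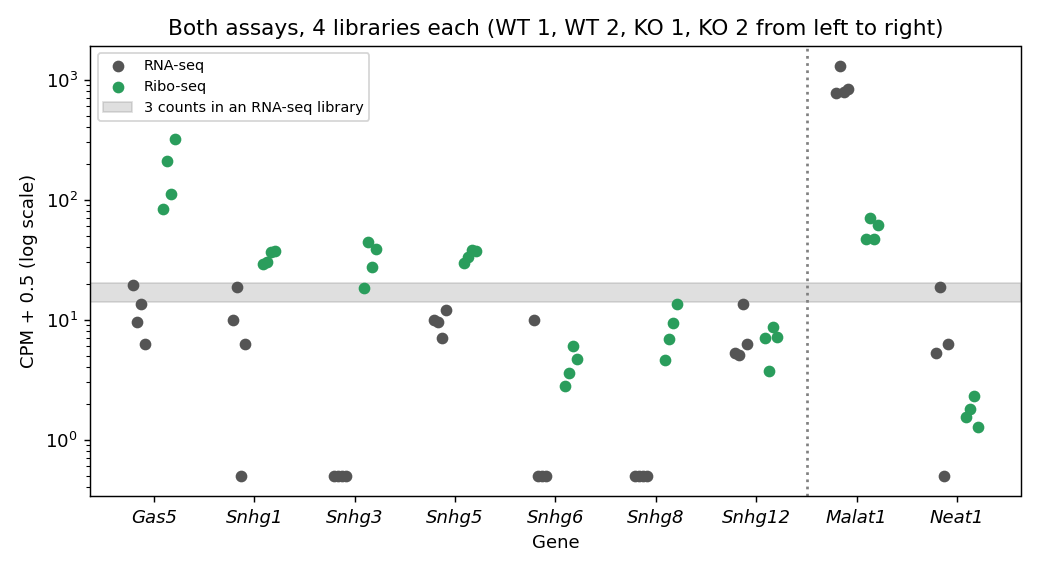
CPM + 0.5 on a log scale in both assays, with RNA-seq in grey, Ribo-seq in green, the 4 libraries of each assay ordered WT 1, WT 2, KO 1 and KO 2, and a grey band at 3 RNA-seq counts. Malat1 lies far above the band in RNA-seq (771 to 1292 CPM) and the hosts lie near or below it, whereas in Ribo-seq Gas5 is above Malat1.

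The contrast was expressed within each library as the log2 ratio of the summed counts of the 7 hosts to Malat1, with 0.5 added to both, so that no scaling between libraries entered. The ratio was -3.83 and -4.90 in WT RNA-seq, -4.45 and -4.73 in KO RNA-seq, 1.89 and 2.24 in WT Ribo-seq and 2.34 and 2.90 in KO Ribo-seq. All 4 Ribo-seq libraries were above all 4 RNA-seq libraries, by 6.82 on the log2 scale or 113-fold (two-sided exact permutation p = 0.0286, the smallest that 4 against 4 libraries allow, and 0.0857 after Benjamini-Hochberg adjustment over 3 contrasts). The difference was 6.02 without Gas5 and 5.49 with Neat1 in place of Malat1, each with the same exact p. The RNA-seq side rests on 5 to 11 host counts per library. Between genotypes, the Ribo-seq ratio was 0.55 higher in KO, with both KO libraries above both WT libraries (exact permutation p = 0.33, the smallest that 2 against 2 allow). The RNA-seq ratio was 0.22 lower in KO (exact permutation p = 1), and without WT replicate 1 it was 0.31 higher.

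**Figure D4:**
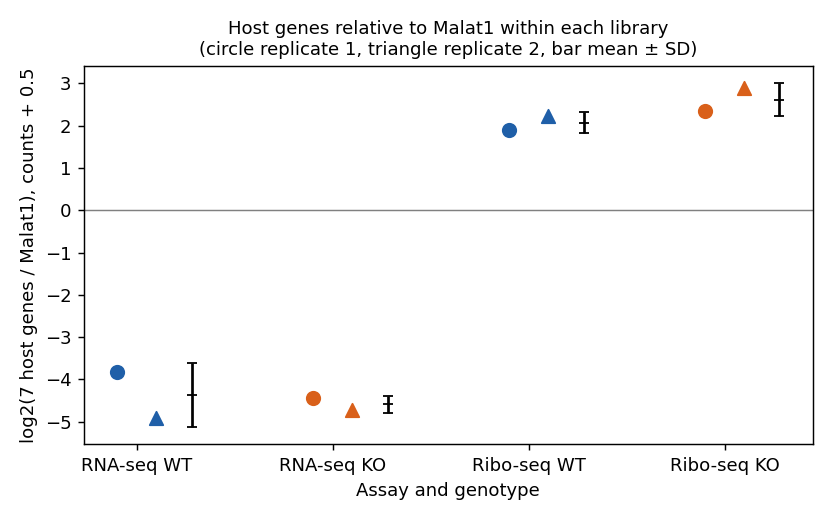
Log2 ratio of the summed counts of the 7 hosts to Malat1 within each library, with circles for replicate 1, triangles for replicate 2 and bars for mean ± SD of 2 libraries. RNA-seq libraries lie between -4.90 and -3.83 and Ribo-seq libraries between 1.89 and 2.90.

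Other genes also took unequal shares of the assays. The log2 ratio of WT footprint CPM to WT RNA-seq CPM had a median of -2.49 over 1458 genes tested in both assays. These genes had to pass the filter on low counts in the shallow RNA-seq libraries, and none of the 7 lncRNA hosts did. The median is thus that of genes selected for their RNA-seq counts, and is no reference for these hosts. Malat1 stood at -4.14, the 29.4th percentile. Protein-coding genes that carry snoRNAs had a median of 2.84 (20 genes, -0.68 to 6.18). By the median, these mRNAs, too, took a larger share of the footprints than of the RNA-seq counts, but the lowest did not. The 7 lncRNA hosts also differed, on 0 to 4 RNA-seq counts per library. Their WT ratios ran from -0.71 (Snhg6) and 0.06 (Snhg12) to 5.98 (Snhg3).

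Most other lncRNA hosts had fold changes above 0 as well. Of 17 listed, 14 were tested in footprints, 0 were called, and 13 had a fold change above 0 (median 0.40). An unadjusted edgeR p below 0.05 was reached by 2 of the 14, beside 2387 of all 12315 genes tested, and DESeq2 called 0. Rian, an imprinted host of many C/D snoRNAs, had 3.73 and 3.33 CPM in WT and 7.51 and 6.79 CPM in KO, a log2 fold change of 1.02 (SE 0.27, edgeR adjusted p = 0.0872). Its imprinted neighbour Meg3 had 8.31 and 6.55 CPM in WT and 12.6 and 11.1 CPM in KO (0.68, SE 0.23, adjusted p = 0.162). Neither group overlapped, and neither gene passed the test. The 3 hosts of this list tested in RNA-seq had 0 calls.

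Among protein-coding hosts, 13 of 25 had a footprint fold change above 0 (median 0.01). The main edgeR fit and DESeq2 called 0 of them. An unadjusted edgeR p below 0.05 was reached by 3, beside 2387 of all 12315 genes tested. The count above 0 was 3 of 25 without WT replicate 2 (median -0.18) and 16 of 25 without WT replicate 1 (median 0.18). The difference from the noncoding hosts was not tested. Eif4a1, the initiation helicase, was at -0.46 (adjusted p = 0.203) and Wdr43, a ribosome biogenesis factor, at -0.35 (adjusted p = 0.23). In RNA-seq 3 of 20 tested fell and 0 rose, beside 2.68% of all genes called lower, and the list median was -1.16 against 0.01 for all genes. In the same libraries the 4 stem cell markers tested had a median of -1.93, Krt8, a trophoblast marker, rose by 4.26 (SE 0.90, edgeR adjusted p = 0.0192), and the ribosomal RNA precursor Rn45s took 7.99% and 3.33% of the WT counts and 0.64% and 1.02% of the KO counts. Their part in the fall was not tested. Rpl3, a ribosomal protein of the large subunit, had 270 and 414 CPM in WT and 78.8 and 121 CPM in KO. It fell by 1.84 on the log2 scale (SE 0.38, edgeR adjusted p = 0.017). Rps2, of the small subunit, had 265 and 330 CPM in WT and 104 and 136 CPM in KO, and it fell by 1.36 (SE 0.35, edgeR adjusted p = 0.0421). Without KO replicate 1 none of the list was called in RNA-seq, and limma on TPM called none. Translational efficiency was called higher for 7 of 20, beside 4.73% of genes, and for 0 of 20 without Ribo-seq KO replicate 2 and 1 of 20 without Ribo-seq KO replicate 1.

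Footprints on the proteins that handle snoRNAs and noncoding hosts had mostly negative fold changes, with 0 genes called in the main edgeR fit or by DESeq2. Without the filter edgeR called 1 decay factor lower, Upf3a (-0.66, adjusted p = 0.046), beside 2.33% of genes called lower. Among 12 proteins of snoRNA particles and their assembly, 2 had a fold change above 0 (median -0.14). An unadjusted edgeR p below 0.05 was reached by 4 of the 12, beside 2387 of all 12315 genes tested. Nop56 of this list is also a protein-coding host. Shq1, an assembly factor of H/ACA particles, had 64.0 and 70.3 CPM in WT and 44.9 and 43.6 CPM in KO (-0.59, SE 0.16, edgeR adjusted p = 0.101), and Ruvbl1, an ATPase of the assembly machinery, was at -0.47 (adjusted p = 0.155). Among 10 factors of nonsense-mediated decay, 1 had a fold change above 0 (median -0.35). For 2 of the 10 the unadjusted edgeR p was below 0.05, beside the same 2387 of 12315 genes. Upf3a, the paralogue of Upf3b, had 30.8 and 29.0 CPM in WT and 18.2 and 19.2 CPM in KO (-0.66, SE 0.18, edgeR adjusted p = 0.102), and Smg6, the endonuclease of the pathway, had 63.3 and 71.9 against 46.4 and 49.8 CPM (-0.47, SE 0.17, edgeR adjusted p = 0.173). Of the 9 paraspeckle proteins, 1 was above 0 (median -0.20) and 0 had an unadjusted p below 0.05, with Tardbp at -0.31 and Nudt21 at -0.32. That median was 0.02 without WT replicate 1, with 5 of 9 above 0.

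**Figure D5:**
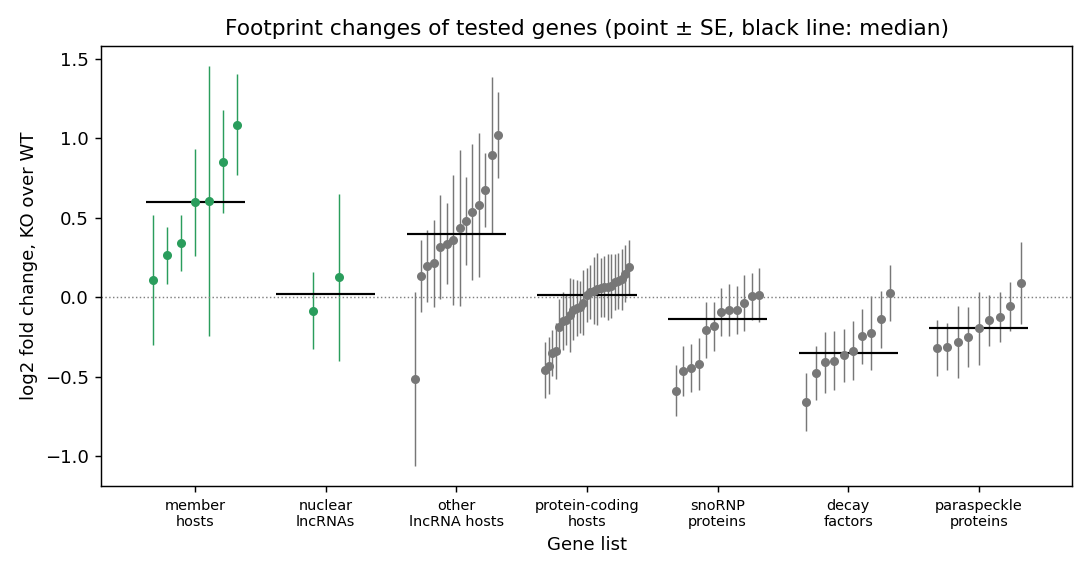
Log2 fold change of footprints, KO over WT, for every tested gene of 7 lists, each point with its SE and a black line at the list median. The 7 member hosts all lie above 0 (median 0.60), the protein-coding hosts scatter around 0 (median 0.01) and the decay factors lie mostly below 0 (median -0.35).

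Among 15 other long noncoding RNAs, 7 were tested in footprints and 6 had a fold change above 0 (median 0.76). The median was 0.45 without WT replicate 2, 0.18 without KO replicate 1 (8 genes tested in each) and 0.27 in limma on TPM. Kcnq1ot1, the imprinted antisense RNA of the Kcnq1 locus, rose from 15.9 and 18.1 CPM in WT to 31.8 and 39.4 CPM in KO, a log2 fold change of 1.09 (SE 0.21, edgeR adjusted p = 0.035), beside 1.83% of genes called higher. The call was lost without KO replicate 2 (0.88, adjusted p = 0.148) and in limma on TPM (0.33, adjusted p = 0.271). In RNA-seq Xist, the RNA that coats the inactive X chromosome, rose from 786 and 807 CPM to 2584 and 2511 CPM (1.58, SE 0.20, edgeR adjusted p = 0.00415), beside 3.69% of genes called higher. Xist had at most 1 footprint count in any library. Its antisense gene Tsix overlaps it, and with no strand setting given reads of the pair may not be told apart.

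The snoRNAs themselves were nearly absent from the tables. Of 28 listed for the member hosts, 7 had a row and 2 passed the filter in footprints, both from Snhg12. Snora61 had 1.34 and 1.90 CPM in WT and 0.64 and 1.39 in KO, a log2 fold change of -0.59 (SE 0.52, edgeR adjusted p = 0.586). Snora44 had 0.29 and 1.07 CPM in WT and 0.43 and 1.31 in KO (0.49, SE 0.77, adjusted p = 0.785). Snord47, of Gas5, had 0 counts in all 8 libraries.

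Across the 8 libraries, among the 1458 genes tested in both assays, the profiles most like Gas5 on log2(CPM + 0.5) were those of Srrm2 (Pearson r = 0.983), Igf2r (0.979) and Sept2 (0.977). Those most like Malat1 were Zfp937 (0.998), Zfp781 (0.997) and Mprip (0.997). The 8 points fall into the 2 assays, so these coefficients mainly describe the gap between assays. Srrm2 had 657 to 1303 CPM in Ribo-seq and 34.7 to 92.5 in RNA-seq, whereas Zfp937 had 2.69 to 4.26 in Ribo-seq and 448 to 965 in RNA-seq.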

How the data were processed

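Per the submitters' processing notes, reads were handled with Bowtie2 2.3.4.3 and RSEM on mm10, with a strand setting not given in the sources used here. Each deposited table, per the file headers, holds RSEM expected counts, TPM, FPKM and lengths per gene symbol. Expected counts were rounded for tests, deposited TPM were used between genes and in 1 alternative, and deposited FPKM were not used. The members, gene lists and tests were chosen with earlier results of these data known. Named genes were the members, Mettl5, and from each list the called genes (at most 4) or else up to 2 with the smallest p. 1 gene that this rule takes is not reported here.

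KO was set against WT in each assay with edgeR 4.0.16 in R 4.3.3 (quasi-likelihood test, TMM, filterByExpr with its minimum count of 10, Benjamini-Hochberg adjustment over all genes tested), with calls at an adjusted p below 0.05. Every unqualified adjusted p is from edgeR. Translational efficiency was the assay by genotype interaction over all 8 libraries. SE were derived from the F statistic. Fits were also run on simulated counts with a fixed spread between replicates and no effect shared by replicate number. That check does not cover replicates as uneven as these. Replicates differed by more than sampling noise (chi-square per degree of freedom 2.96 to 24.1). Transcript models came from GENCODE M21 (GRCm38) through its RefSeq links. Alternatives were DESeq2 1.42.0, its size factors in edgeR, no filter, a replicate block, limma 3.58.1 on log2(TPM + 1), Rn45s left out, and each library left out.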

Additional observations from a re-analysis of the deposited data

How the results depend on the processing

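Depth limited the RNA-seq side: no host passed the filter there, and 3 counts were worth 13.7 to 19.7 CPM. The count of genes called in Ribo-seq was 301, and it was 1110 without the filter, 172 with limma on log2(TPM + 1), and 189 (without KO replicate 2) to 761 (without WT replicate 1) when 1 library was left out. In RNA-seq it was 133, against 75 with DESeq2, 37 with limma, and 73 to 242 with 1 library left out. For translational efficiency it was 135, against 18 to 154 with 1 library left out. With 1 library left out, log2 fold changes ranged from -0.43 to 1.41 for Gas5, -0.40 to 0.88 for Snhg3, -0.36 to 0.23 for Malat1 and -0.52 to 0.60 for Neat1. Signs of member footprint changes reversed with 1 library left out in the cases named in the results, also for Snhg3 (-0.22), Malat1 (0.14) and Neat1 (-0.03). The RNA-seq ratio of hosts to Malat1 (KO minus WT, -0.22) ranged from -0.76 to 0.31 with 1 library left out, and was 0.66 with Neat1 as the reference. The cause was not tested. Without the filter, where 6.41% of genes were called, Gas5 (0.62, adjusted p = 0.0188) and Snhg8 (1.09, adjusted p = 0.00274) were called. Snhg1 and Snhg5 kept their direction and missed the threshold in all 10 alternatives.

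Same-numbered Ribo-seq libraries deviated together (correlation 0.398, against 0.0316 in RNA-seq) and share a tag in their names, but no label says that the number marks a shared day. A fit with a replicate block called 2960 genes in Ribo-seq (24.0% of those tested), 1566 higher and 1394 lower, 155 in RNA-seq and 160 for translational efficiency. Under that block Gas5 (0.54, adjusted p = 5.14e-05), Snhg6 (0.86, adjusted p = 0.0368) and Snhg8 (1.07, adjusted p = 8.26e-05) were called, and no other member was. It also called Rian (adjusted p = 0.00204), Meg3 (0.0085) and 1 other of the 14 tested lncRNA hosts higher, and 3 of 25 protein-coding hosts, 4 of 12 snoRNA particle proteins (Shq1, 5.93e-05), 5 of 10 decay factors (Upf3a, 0.000186, and Smg6, 0.00144) and 2 of 9 paraspeckle proteins lower, beside 12.7% of all genes called higher and 11.3% lower.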
